A study of Homo sapiens with 12 samples.

Results

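The cystatin family was followed by RNA-seq in the MDA-MB-231-ERβ line. Its members were chosen by symbol, with earlier results of these data known. They are the 9 genes CST1, CST2, CST3, CST4, CST5, CST6, CST7, CSTA and CSTB, and 8 of them have a row among the 12451 entries used. CSTA has none and was not analysed here. MDA-MB-231 is a triple negative breast cancer cell line, and MDA-MB-231-ERβ carries full-length ERβ under a promoter induced by doxycycline (dox). All groups received dox, although the treatment label of the E2+TNFα libraries does not name it and it is taken for them from the protocol. Cells were given vehicle or 1 nM E2 (estradiol, the ligand of ERβ) for 5 days, and 20 ng/ml TNFα, a cytokine that activates NFκB, was added for the final 3 h in the TNFα and E2+TNFα groups. Each of the 4 groups had 3 replicates (12 libraries). The replicates are dishes of one engineered line, so the p-values measure the spread between dishes.

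Cystatins are inhibitors of papain-like cysteine proteases, chiefly the lysosomal cathepsins, and they bind in the active site cleft of the enzyme without being cleaved. The secreted cystatins carry a signal peptide and conserved disulfide bonds, and most of their genes lie in a cluster on the short arm of chromosome 20. CST1 (cystatin SN), CST2 (cystatin SA), CST4 (cystatin S) and CST5 (cystatin D) encode proteins best known from saliva and tears, and CST3 encodes cystatin C, which nearly all cells secrete. CST6 (cystatin E/M) also inhibits legumain, CST7 (cystatin F) is made mainly by immune cells and acts on cathepsin C, and CSTA and CSTB encode the stefins, which have no signal peptide and stay inside the cell.

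In hg38, the genes CST3 (23627897 to 23638048), CST4 (23685640 to 23689025), CST1 (23747553 to 23750937), CST2 (23823767 to 23826675) and CST5 (23875935 to 23879743) follow each other on the minus strand of chromosome 20. From the start of CST4 to the end of CST5 the distance was 194.1 kb. CST7 lies further along the same chromosome on the plus strand (24949230 to 24959928). CST6 is on chromosome 11 (66011991 to 66013505, plus strand) and CSTB on chromosome 21 (43773665 to 43776375, minus strand). The entries have 3 exons each, other than CST3 and CST7 with 4.

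Several of these genes are near copies of each other, and this bears on how their reads can be told apart. The second coding exon of CST1 and of its neighbours is shown here on the coding strand, read from hg38, with capitals at the bases that differ from CST1. The exons lie at chr20:23749016-23749129 (CST1), chr20:23687088-23687201 (CST4), chr20:23825210-23825323 (CST2), chr20:23877505-23877618 (CST5) and chr20:23635254-23635367 (CST3).
CST1: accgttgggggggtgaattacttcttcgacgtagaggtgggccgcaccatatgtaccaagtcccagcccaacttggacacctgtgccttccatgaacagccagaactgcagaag
CST4: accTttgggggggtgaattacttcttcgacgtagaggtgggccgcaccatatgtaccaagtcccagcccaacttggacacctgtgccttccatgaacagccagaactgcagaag
CST2: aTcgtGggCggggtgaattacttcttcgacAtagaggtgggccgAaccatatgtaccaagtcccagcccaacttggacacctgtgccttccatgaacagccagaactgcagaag
CST5: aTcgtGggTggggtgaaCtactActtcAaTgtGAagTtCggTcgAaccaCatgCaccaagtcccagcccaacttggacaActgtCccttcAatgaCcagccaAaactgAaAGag
CST3: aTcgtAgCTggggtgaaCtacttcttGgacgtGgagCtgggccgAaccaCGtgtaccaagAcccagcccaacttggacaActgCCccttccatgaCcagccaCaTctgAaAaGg

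In this exon of 114 bases CST4 differed from CST1 at 1 base, CST2 at 5, CST3 at 21 and CST5 at 23. Over all exons joined, CST1 and CST4 were identical at 94.6% of aligned bases, CST1 and CST2 at 91.4%, and CST2 and CST4 at 92.2%. CST5 matched the other members of the cluster at 77.4% to 79.7%. Of the 711 stretches of 50 bases (the read length) in the spliced CST1 exons, 177 (24.9%) were also found in CST4, and these were 25.8% of the stretches of CST4. Only 38 (5.34%) of those of CST1 were found in CST2, and 2 (0.28%) in CST5. The study's reads were paired, and only exons of the family were compared, so these percentages are not the shares of ambiguous reads. How reads with more than one match were counted is not given in the sources used here, so that the values of CST1, CST4 and, to a lesser extent, CST2 are uncertain in how they divide reads between these genes. They were therefore also tested as one sum.

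The libraries held 7.65 to 39.9 M reads (M, mega), fewest in E2 (7.65 to 15.8) and most in vehicle (35.8 to 39.9). Values are given as counts per mega reads (CPM) on library sizes scaled by TMM. The vehicle libraries stand apart from the other 9: changes relative to vehicle rose with the GC content of a gene's exons (Spearman rho across genes 0.66 for E2, 0.71 for TNFα and 0.67 for E2+TNFα), whereas the trend was −0.21 for E2+TNFα relative to TNFα. It was −0.33 for E2+TNFα relative to E2, so that a weaker trend was also present without the vehicle libraries. The cystatin exons are 52.8% to 64.4% GC, and the 4058 tested genes in that range had a median log2 fold change of 0.69 in E2 relative to vehicle and of −0.05 in E2+TNFα relative to TNFα. Treatment and any batch of the vehicle libraries cannot be told apart, and the E2 effect is therefore given both relative to vehicle and, in cells given TNFα, relative to TNFα. All 4 mesenchymal markers (VIM, AXL, CD44, CAV1) were present at a summed 3623 to 4847 CPM, 4 of 7 luminal markers have an entry (ERBB2, GATA3, EPCAM and CDH1, summed 115 to 184 CPM) but the receptors ESR1 and PGR have none, and of 4 immune markers only CD14 has an entry, at 0.56 to 1.89 CPM. Of the luminal markers 1 moved with the cystatins and was called higher in both E2 comparisons, CDH1 (E-cadherin), at 3.15 ± 0.52 CPM in vehicle and 41.0 ± 11.1 in E2, and at 1.90 ± 0.19 in TNFα and 40.7 ± 5.01 in E2+TNFα (SD, n = 3). Its part in the results was not tested. Counts of ESR2, the ERβ gene, were 473 ± 14.9 CPM with vehicle and 449 ± 53.2 with E2+TNFα, and lower with E2 (306 ± 14.7) and TNFα (255 ± 26.7) alone (SD, n = 3), and its part in the results was not tested.

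A gene was called where its fitted log2 fold change was at least 1.5 in size with p under 0.05 and a Benjamini-Hochberg adjusted p of at most 0.1 over all 11303 genes tested with the quasi-likelihood test of edgeR. All 8 cystatins with an entry were tested. CST2 and CST5 passed the filter on low values (3 or more libraries with an RPKM of 1 or above) only through the 6 libraries with E2, and CST6 through 4 libraries, 3 of them of TNFα. CST7 reached it in 10 libraries and CST1, CST3, CST4 and CSTB in all 12.

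E2 raised the salivary-type cystatins of the chromosome 20 cluster by 35.3-fold to 173.5-fold over vehicle, raised CST3 and CSTB by 3.64-fold and 3.28-fold, and lowered CST7 to 0.207 of its vehicle level. In all, 6 of the 8 genes were called higher and 1 lower, with CST6 not called. The 6 include CST2 and CST5, whose direction followed from the filter, as they passed it only through libraries with E2. They add no support to this count or to the median below. Among all genes tested, 9.87% were called higher and 20.6% lower (30.5% in all). The median log2 fold change was 3.50 for the 8 cystatins and −0.02 for all genes. The study's own list of genes regulated by E2 in these data holds CST1, CST2, CST4 and CST5. These counts and medians therefore describe the family and are no test of it. The study's list gives each of these genes a larger log2 fold change than found here, and it is shorter than the set called here. The study applied a batch correction that the deposited counts lack, and its part in these differences was not tested. For 7 of the 8, the E2 and vehicle libraries did not overlap, which was true of 80.9% of all genes, and adjusted p reached 0.1 or less for 7, against 81.8% of all genes.

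CST1, whose product cystatin SN is a potent cathepsin inhibitor, was at 15.4, 12.9 and 12.3 CPM in the vehicle libraries and at 639.7, 789.9 and 635 CPM in the E2 libraries. Every E2 library was far above every vehicle library. The fitted log2 fold change was 5.67 ± 0.16 (SE, 95% interval 5.34 to 5.997, adjusted p = 9.30e-13, edgeR).

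CST4 followed the same course at a lower level, with 10.9, 9.26 and 10.1 CPM in vehicle and 325, 417 and 326 CPM in E2 (log2 fold change 5.14 ± 0.15, SE, adjusted p = 1.67e-12, edgeR). CST2 was near the lower end of detection in vehicle, with 19, 16 and 22 reads (0.46, 0.38 and 0.48 CPM). In E2 it had 743, 393 and 589 reads (50.8, 62.7 and 53.3 CPM), a log2 fold change of 6.96 ± 0.24 (SE, adjusted p = 8.61e-12, edgeR).

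CST5, the most distant in sequence of these 4, had only 2, 5 and 6 reads in the vehicle libraries and 229, 119 and 187 in the E2 libraries (15.7, 19.0 and 16.9 CPM). Its vehicle level was 0.10 ± 0.04 CPM (SD, n = 3), close to the 0.07 CPM that 3 reads amount to there. The log2 fold change of 7.35 (95% interval 6.68 to 8.03, adjusted p = 5.34e-10, edgeR) thus rests on 13 vehicle reads.

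**Figure D1:**
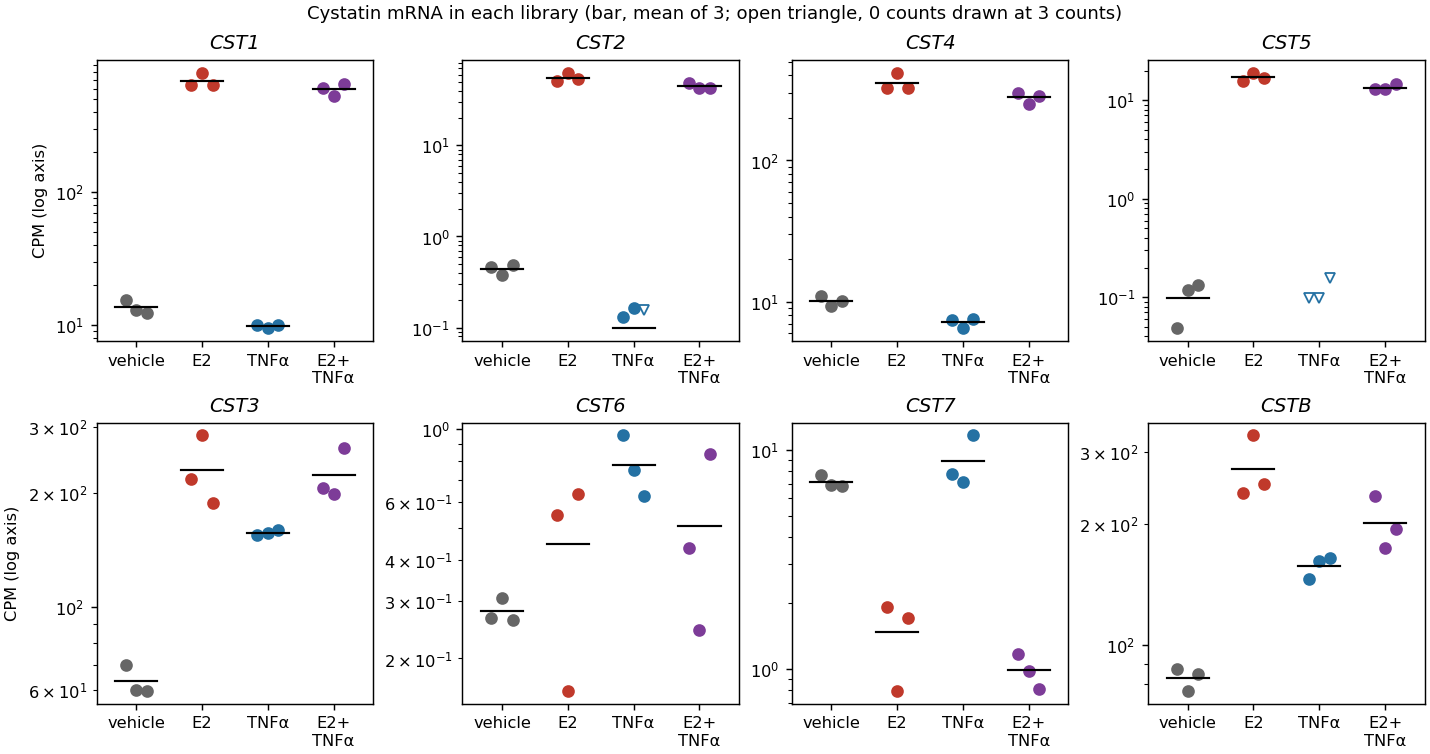
CPM of the 8 cystatin genes in each of the 12 libraries (log axis), by group, with 1 point per library, a bar at the group mean and open triangles where a library had 0 reads, drawn at its level of 3 reads. CST1, CST2, CST4 and CST5 sit high in every E2 and E2+TNFα library and low in every vehicle and TNFα library, and CST7 shows the opposite order.

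CST7 was the only one of the 8 to fall. It was at 7.69, 6.89 and 6.85 CPM in vehicle and at 1.92, 0.80 and 1.72 CPM in E2, from 28, 5 and 19 reads. The groups did not overlap, and the log2 fold change was −2.18 ± 0.30 (SE, adjusted p = 7.72e-06, edgeR). CD14, the only immune marker with an entry, ranged from 0.56 to 0.77 CPM in vehicle and from 0.82 to 1.36 CPM in E2.

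CST3 rose from 70.0, 60.3 and 59.9 CPM to 219, 285 and 188 CPM (log2 fold change 1.86 ± 0.15, SE, adjusted p = 5.10e-08, edgeR). CSTB, the intracellular stefin B, rose from 87.3, 77.2 and 84.9 to 238, 331 and 251 CPM (1.71 ± 0.14, SE, adjusted p = 5.84e-08, edgeR). Both changes were within the 5th to 95th percentile range of genes of like GC content (−0.90 to 2.36). Both fell under the size threshold once trends with GC content and length were removed (1.25 for each), whereas CST1, CST2, CST4 and CST5 stayed at 4.37 to 6.75. With library size in place of TMM both were also under it (1.49 for CST3 and 1.34 for CSTB), against 4.77 to 6.999 for CST1, CST2, CST4 and CST5. With an unwanted factor estimated from 20 housekeeping genes, CST3 (0.70), CSTB (0.79) and CST7 (−1.58) were no longer called, whereas CST1, CST2, CST4 and CST5 remained so at 4.24 to 6.88. CST6 had 11, 13 and 12 reads in vehicle and 8, 1 and 7 in E2, and its log2 fold change of 0.81 had a 95% interval of −0.45 to 2.07 (adjusted p = 0.219, edgeR). No change of CST6 was detected.

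E2 also raised CST1, CST2, CST4 and CST5 in cells given TNFα, a comparison that does not use the vehicle levels. The scaling, the filter and the spread still came from the fit of all 12 libraries. With only the E2+TNFα and TNFα groups fitted, 5 cystatins were called. In E2+TNFα relative to TNFα, 4 of the 8 cystatins were called higher (CST1, CST2, CST4 and CST5) and 1 lower (CST7). Here too the direction of CST2 and CST5 followed from the filter, and they add no support to the count or the median. Far fewer genes were called overall in this comparison, 3.55% higher and 2.01% lower (5.56% in all). The median log2 fold change was 2.90 over the 8 cystatins, also with CST5 at its bound, and 0.04 over all genes. The groups did not overlap for 7 cystatins (46.8% of all genes), and adjusted p was 0.1 or less for 7 (45.3% of all genes).

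CST1 was at 9.94, 9.46 and 9.94 CPM in TNFα and at 607, 525 and 655 CPM in E2+TNFα. This was a 60.9-fold difference of the means, and a log2 fold change of 5.93 ± 0.16 (SE, 95% interval 5.59 to 6.27, adjusted p = 3.29e-12, edgeR). CST4 went from 7.41, 6.49 and 7.54 to 302, 249.7 and 287 CPM (5.29 ± 0.15, SE, adjusted p = 4.31e-12, edgeR). These libraries separated as widely as those of E2 and vehicle.

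CST2 had 4, 5 and 0 reads in the TNFα libraries and 786, 1208 and 1444 in the E2+TNFα libraries, with a log2 fold change of 8.59 (95% interval 7.95 to 9.23, adjusted p = 1.60e-11, edgeR). Only 9 reads stand behind the lower group. CST5 had 0 reads in each of the 3 TNFα libraries and 211, 368 and 483 in E2+TNFα (13.0, 12.9 and 14.5 CPM). Set against 3 reads per library, the level that a count of 0 allows (0.10 to 0.16 CPM in these libraries), CST5 was at least 114.5-fold higher in E2+TNFα, a bound that covers counting error only.

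CST7 fell from 7.77, 7.11 and 11.6 CPM in TNFα to 1.17, 0.98 and 0.81 CPM in E2+TNFα (log2 fold change −3.18 ± 0.29, SE, adjusted p = 6.10e-07, edgeR). CD14 was also lower here, at 0.66 to 0.78 CPM in E2+TNFα against 1.19 to 1.89 CPM in TNFα, and its part in the result was not tested. CST3 changed little by comparison, from 155, 157 and 159.6 to 206, 199 and 264 CPM. Its log2 fold change of 0.51 (adjusted p = 0.0149, edgeR) was under the size threshold, as was the 0.35 of CSTB (adjusted p = 0.0605, edgeR). CST6 was at 0.95, 0.75 and 0.62 CPM in TNFα and 0.43, 0.24 and 0.84 in E2+TNFα, and these libraries overlapped (−0.59, 95% interval −1.55 to 0.38).

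**Figure D2:**
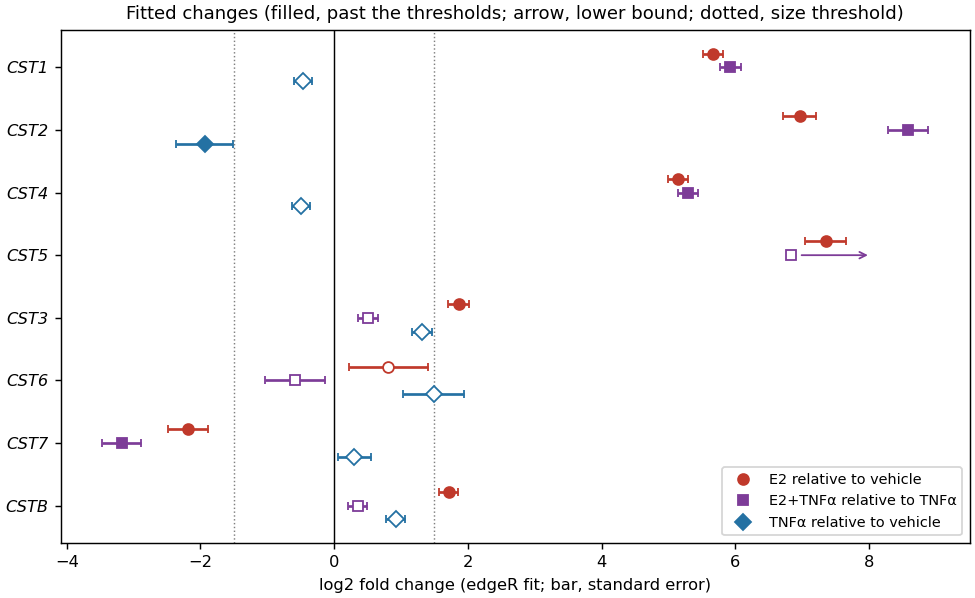
Fitted log2 fold changes (edgeR, bars are standard errors) of the 8 cystatin genes for E2 over vehicle, E2+TNFα over TNFα and TNFα over vehicle, filled where called, with the arrow marking the lower bound of 6.84 for CST5. CST1, CST2, CST4 and CST5 lie above 5 in both E2 comparisons and CST7 below −2, while CST3 and CSTB pass the size threshold of 1.5 only relative to vehicle.

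TNFα alone raised none of CST1, CST2, CST4 and CST5. Relative to vehicle, 0 cystatins were called higher and 2 lower, CST2 and CST5, against 20.0% of all genes called lower (26.7% in either direction). CST2 fell from 57 reads in all to 9 (log2 fold change −1.94 ± 0.42, SE, adjusted p = 0.00066, edgeR). CST5 went from 13 reads in the 3 vehicle libraries to 0 in the 3 TNFα libraries, where no fold can be given. Its call therefore rests on a fitted value that bounds nothing, and only the call of CST2 has a size. CST1 and CST4 had small differences in the same direction, −0.47 (adjusted p = 0.00526) and −0.50 (adjusted p = 0.00404, edgeR), which did not reach the size threshold. They were −1.06 and −1.07 with GC and length trends removed and −1.14 and −1.15 with the unwanted factor, still under it.

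CST3 (155 to 159.6 CPM in TNFα) and CSTB (146 to 165 CPM) were higher than in every vehicle library, with log2 fold changes of 1.31 (adjusted p = 1.73e-06) and 0.92 (adjusted p = 2.70e-05, edgeR), under the size threshold. Genes of like GC content had a median of 0.64 in this comparison. CST6 had 29, 23 and 12 reads in TNFα, and its 1.49 (adjusted p = 0.00789, edgeR) lay just under the threshold. CST6 passed the filter through 3 libraries of TNFα and 1 of E2+TNFα, and through none of vehicle. Its direction here therefore followed from the filter, and it adds no support to the counts below. CST7 did not differ detectably (0.30, 95% interval −0.22 to 0.82). Groups did not overlap for 7 of the 8 cystatins and for 86.6% of all genes, and adjusted p was 0.1 or less for 7, against 81.9% of all genes, so that these counts do not set the cystatins apart.

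With both agents, levels were close to those with E2 alone. In E2+TNFα relative to vehicle, 5 cystatins were called higher (7.52% of all genes) and 1 lower (17.6%, and 25.1% in all). The 5 again include CST2 and CST5, whose direction followed from the filter. CST1, CST2, CST4 and CST5 had log2 fold changes of 5.46, 6.65, 4.79 and 7.01, CST3 of 1.82 and CST7 of −2.88, whereas CSTB at 1.27 was under the size threshold. The call of CST3 was lost with GC and length trends removed (1.32) and with the unwanted factor (0.94). Adjusted p was at most 0.1 for 7 cystatins (80.6% of all genes), and 7 did not overlap (81.6%). This comparison shares its vehicle libraries with that of E2.

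In E2+TNFα relative to E2, 0 cystatins were called with edgeR and 0 with DESeq2, and 0.407% of all genes were called with edgeR. None reached an adjusted p of 0.1 in edgeR (6.0% of all genes), although 2 had an unadjusted p under 0.05, CST4 (−0.35, 95% interval −0.61 to −0.08) and CSTB (−0.44, −0.74 to −0.14). Their adjusted p was 0.151 and 0.104 in edgeR and 0.0799 and 0.0406 in DESeq2. Both changes lay within the 5th to 95th percentile range of genes of like GC content (−0.51 to 0.40). The libraries of the groups did not overlap for 4 of the 8 (15.3% of all genes), namely CST2, CST4, CST5 and CSTB, each lower with TNFα. The interval for CST1 was −0.48 to 0.06, so a fall by more than 0.48 on the log2 scale lay outside it.

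The interaction of E2 and TNFα, the difference between the effect of E2 with and without TNFα, was called for 2 cystatins, both positive (22.5% of all genes; 31.8% in either direction). They were CST2 (1.63, adjusted p = 0.00582, edgeR) and CST5, and both rest on the very few reads of the TNFα libraries. CST5 had 0 reads there, so no size can be given for it and its call rests on a fitted value that bounds nothing. For CST1 and CST4 it was 0.26 and 0.15 (adjusted p = 0.215 and 0.481, edgeR). These values depended on the processing, with 0.94 and 0.82 (adjusted p = 0.00011 and 0.00081) once GC and length trends were removed and 1.16 and 1.02 (adjusted p = 0.0157 and 0.0322) with the unwanted factor, all under the size threshold. CST3 and CSTB had −1.35 and −1.36, but −0.24 and −0.47 (adjusted p = 0.652 and 0.384) with the unwanted factor. Adjusted p was at most 0.1 for 5 cystatins and for 76.6% of all genes, and this contrast includes the vehicle libraries.

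As 1 summed feature, CST1, CST2, CST4 and CST5 had a log2 fold change of 5.53 in E2 relative to vehicle, 5.78 in E2+TNFα relative to TNFα, −0.51 in TNFα relative to vehicle and −0.26 in E2+TNFα relative to E2. How shared reads were divided among these genes does not change the sum, although reads left uncounted for having several matches would be missing from it. The division itself differed between groups. CST4 had 70.7 to 82.0 reads per 100 reads of CST1 in vehicle and 68.6 to 75.9 in TNFα, but 50.8 to 52.8 in E2 and 43.8 to 49.8 in E2+TNFα. CST2 had 2.90 to 3.93 per 100 reads of CST1 in vehicle and 7.94 to 8.38 in E2. Misassigned reads may enter these ratios, and their part was not tested.

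**Figure D3:**
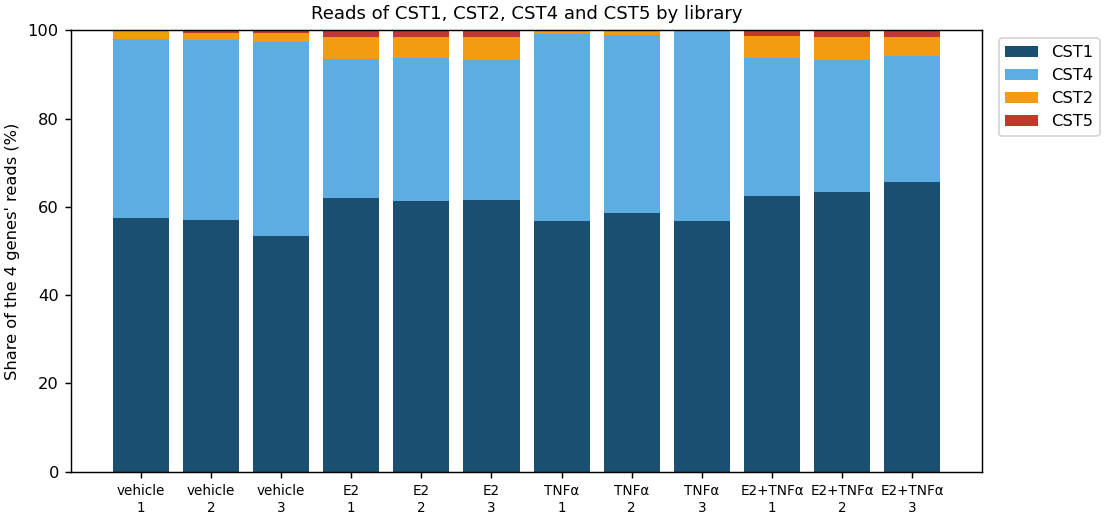
Shares of CST1, CST2, CST4 and CST5 in the reads of these 4 genes (percent), for each of the 12 libraries. The share of CST1 averaged 56.0% in vehicle and 61.7% in E2, that of CST4 41.8% and 31.8%, and that of CST2 1.82% and 4.99%.

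Per length of exon, the order of the family turned over with E2. In vehicle, CSTB was highest at 88.4 ± 5.62 RPKM (CPM per kilobase of exon, SD, n = 3), followed by CST3 at 25.8 ± 2.33, CST1 at 17.8 ± 2.20, CST4 at 13.7 ± 1.12 and CST7 at 7.68 ± 0.51. CST2, CST6 and CST5 were under 1 RPKM, and no neighbours in this order overlapped. In TNFα the order was CSTB (167 RPKM), CST3 (63.9), CST1 (12.9), then CST4 (9.71) and CST7 (9.49), whose libraries overlapped, then CST6, CST2 and CST5.

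In E2, CST1 was highest at 906 ± 116 RPKM, followed by CST4 at 483 ± 72.1 and CSTB at 290.4 ± 53.4. CST3 (93.9 ± 20.1) and CST2 (80.1 ± 9.02) overlapped and came next, ahead of CST5 at 22.9 ± 2.23. CST7 (1.59) and CST6 (0.73) came last and overlapped. E2+TNFα had the same order, with CST1 at 784 ± 86.7 RPKM and CST3 and CST2 no longer overlapping. The summed RPKM of CST1, CST2, CST4 and CST5 was 20.9% ± 0.80 of that of the 8 cystatins in vehicle and 8.60% ± 0.62 in TNFα, but 79.5% ± 0.78 in E2 and 80.3% ± 0.69 in E2+TNFα (SD, n = 3). These shares and the rank of CST3 depend on the exon length of its entry. That length was 2455 bases, against 609 (CST6) to 940 (CSTB) in the others. Before division by length, CST3 was at 230.5 CPM and CST2 at 55.6 CPM in E2.

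The rise with E2 was followed along chromosome 20 in the genes within 1.5 Mb on either side of CST1, a window chosen after values had been seen. Of the 8 other genes tested there, 1 was called in E2 relative to vehicle, NXT1, a nuclear export factor (1.87), where 30.5% of all genes were called, and their range was −1.02 to 1.87. In E2+TNFα relative to TNFα, 0 of the 8 were called (5.56% of all genes), with a range of −1.33 to 1.03. CST3, next to CST4, had 1.86 and 0.51 in these comparisons, and CST4 5.14 and 5.29.

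**Figure D4:**
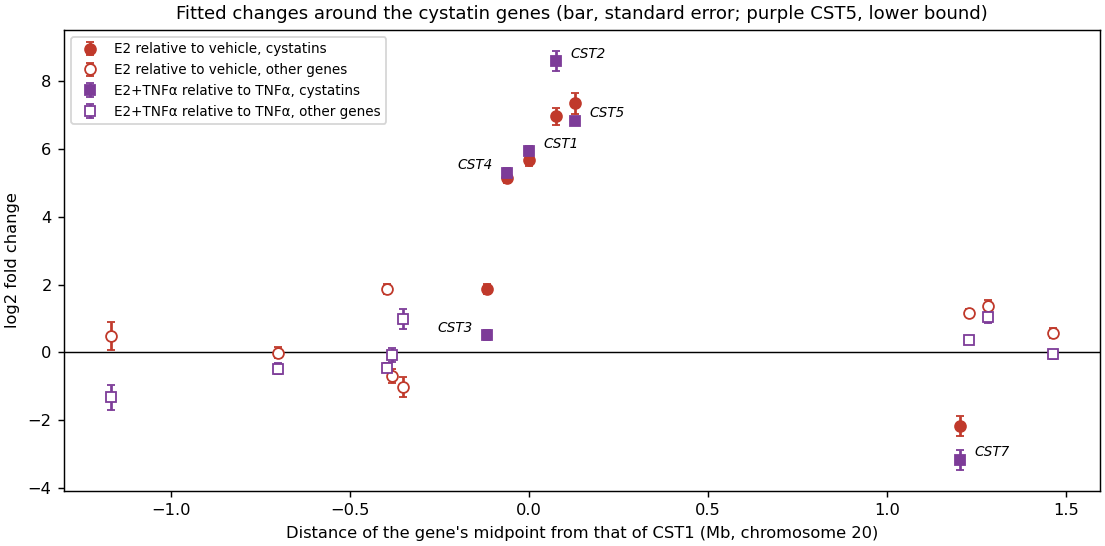
Fitted log2 fold changes (bars are standard errors) against the distance of each tested gene's midpoint from that of CST1 on chromosome 20 (Mb), for E2 over vehicle and E2+TNFα over TNFα, with CST5 at its lower bound in the second. CST4, CST1, CST2 and CST5 lie between 5.14 and 8.59, while the 8 genes that are not cystatins lie between −1.33 and 1.87.

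The RefSeq promoter table (GRCh38.p14) matched 2 of the 9 members, CST5, which rose strongly, and CST3, which rose less. The 250 bases before each start are shown for that contrast, on the minus strand at chr20:23879749-23879998 (CST5) and chr20:23637956-23638205 (CST3), with capitals at a match to a searched motif. The CST3 entry as counted runs to 23638048, so the bases shown nearest its RefSeq start lie within that entry.
CST5: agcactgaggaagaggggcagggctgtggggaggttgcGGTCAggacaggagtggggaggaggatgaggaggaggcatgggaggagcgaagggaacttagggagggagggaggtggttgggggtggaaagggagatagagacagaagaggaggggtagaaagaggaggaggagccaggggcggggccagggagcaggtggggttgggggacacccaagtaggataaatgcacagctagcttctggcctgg
CST3: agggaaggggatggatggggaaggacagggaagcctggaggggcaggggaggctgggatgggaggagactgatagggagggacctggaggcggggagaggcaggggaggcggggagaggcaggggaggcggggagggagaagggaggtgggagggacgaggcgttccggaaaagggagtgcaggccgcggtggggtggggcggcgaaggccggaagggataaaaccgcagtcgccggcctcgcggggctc

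Each promoter, from 250 bases before to 50 after the start, was searched on both strands for GGTCANNNTGACC (the full estrogen response element), for GGTCA (one arm of that element and contained in it), for TATAAA (the TATA box), for CCAAT (the CAAT box) and for TGANTCA (the AP-1 motif). CST5 held a single GGTCA, from −212 to −208 relative to the start, and CST3 held none of the motifs. The study located most ERβ binding sites far from transcription starts, outside the stretch searched here. Of the 35116 promoters in the table, 37.38% held GGTCA, 0.06% the full element, 11.53% TATAAA, 34.61% CCAAT and 7.71% TGANTCA. The promoters of CST5 and CST3 were identical at 77.6% of 254 aligned bases.

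The proteases that cystatins act on were listed for comparison. Of 12 listed enzymes (cysteine cathepsins and legumain), 11 have an entry and 9 were tested. In E2 relative to vehicle 0 were called higher and 1 lower, against 30.5% of all genes called in either direction, and 4 rose and 2 fell at an adjusted p of 0.1 or less whatever their size, against 81.8% of all genes. Their median was −0.04. In E2+TNFα relative to TNFα 0 were called (5.56% of all genes), with 4 higher and 2 lower at that adjusted p (45.3% of all genes) and a median of 0.35.

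The protease called was CTSK, cathepsin K, an enzyme that degrades bone collagen. It ranged from 2.61 to 2.98 CPM with vehicle, from 0 to 0.82 with E2, from 0.40 to 0.52 with TNFα and from 0.69 to 0.99 with both agents. These came from 108 to 127 reads with vehicle, 0 to 12 with E2, 10 to 15 with TNFα and 16 to 23 with both. Its log2 fold change was −2.62 with E2, −2.58 with TNFα and −1.78 with both, relative to vehicle, and its interaction of 3.42 was also called. Every one of these comparisons includes the vehicle libraries. CTSK may have passed the filter only through them, where it was highest, and its calls would then follow from the filter. None of the 9 other cystatin superfamily genes listed (CST8, CST9, CST9L, CST11, CSTL1, KNG1, AHSG, FETUB and HRG) has an entry, and they were not analysed here.

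Among 11187 genes other than the cystatins with a mean of at least 1 CPM, those with a pattern most like that of each cystatin were ranked by Pearson's r of log2 CPM over the 12 libraries, which fall into groups, so that r mostly reflects group differences. MAB21L4 was nearest to CST1 (r = 0.999) and to CST4 (0.999), TUBA3E to CST2 (0.996), OLFML3 to CST5 (0.998), TRADD to CST3 (0.996), S100A10 to CSTB (0.998), TXNIP to CST7 (0.980) and PIGU to CST6 (0.919). MAB21L4 was at 40.2 ± 10.1 CPM with E2 and 35.5 ± 7.08 with both agents, but at 0.06 ± 0.01 with vehicle and 0 with TNFα (SD, n = 3). TXNIP, like CST7, was lower with E2, at 65.1 ± 8.91 CPM against 238 ± 19.9 in vehicle, and at 36.6 ± 2.04 in E2+TNFα against 329 ± 121 in TNFα. The mean of CST1, CST2, CST4 and CST5 was most like F13A1 (0.999), MAB21L4 (0.998), OLFML3 (0.998), IRX3 (0.997) and GJA5 (0.997). IRX3, a homeobox transcription factor, was at 417 ± 35.7 CPM with E2 and 449 ± 76.8 with both agents, against 28.1 ± 2.76 with vehicle and 20.7 ± 0.82 with TNFα.

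**Figure D5:**
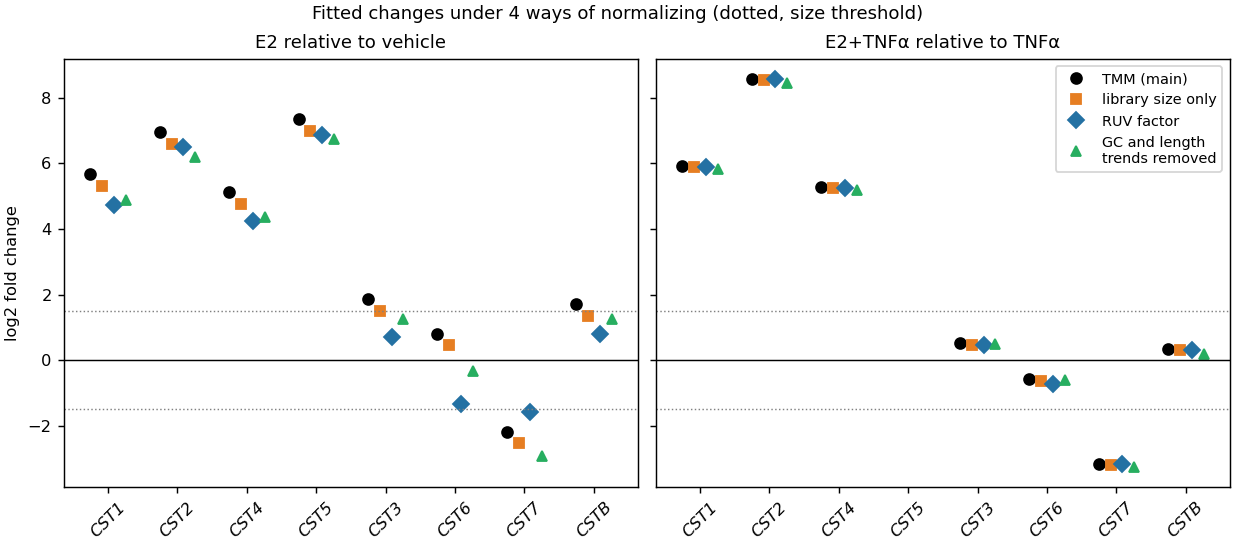
Log2 fold changes of the 8 cystatin genes under 4 ways of normalizing (TMM, library size only, an unwanted factor from housekeeping genes, and removal of GC and length trends), for E2 over vehicle and for E2+TNFα over TNFα (CST5 is left out of the second, where only a bound can be given). CST1, CST2 and CST4 stay above 4 throughout both, whereas CST3 and CSTB cross the size threshold of 1.5 relative to vehicle. The direction of CST2 and CST5 followed from the filter.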

How the data were processed

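RNA was measured in 12 libraries of MDA-MB-231-ERβ cells, grouped by the treatment labels into vehicle, E2, TNFα and E2+TNFα (n = 3 each). The deposited values are raw whole-number counts per gene, which the authors made from stranded mRNA libraries by alignment to hg38 with TopHat2 2.1.0 and featureCounts (submitters' processing notes). The batch correction of the study's methods is not in them. Strand and multi-mapping settings of the counting are not given in the sources used here. Of 12567 entries, 46 repeated another exactly and 70 gave the same locus and values under a second symbol, which left 12451, and every count column was mapped to a sample.

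Counts were scaled by TMM. A single edgeR 4.0.16 fit (R 4.3.3) with a mean for each of the 4 groups was made on the 11303 genes that had an RPKM of 1 or above in 3 or more libraries, and contrasts were tested by quasi-likelihood. Thresholds (log2 fold change of 1.5, p under 0.05, adjusted p of at most 0.1) follow the study's methods. Intervals are at 95%, and bounds set a count of 0 at 3 counts per library. Library depth was 7.65 to 39.9 M reads; the bounds cover counting error only. Exon sequences, identities and shared stretches of 50 bases were read from hg38 with pysam 0.24.0 and Biopython 1.88, and promoters from RefSeq.

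Named genes were the cystatins, the listed proteases (cysteine cathepsins and legumain) past the thresholds in any comparison, other cystatin superfamily genes with an entry, and the genes nearest in pattern to each cystatin and to the mean of CST1, CST2, CST4 and CST5. NXT1 and the genes around the cluster were chosen after their values were seen, and so were the ratios of reads within the cluster. The members and the lists (proteases, superfamily, mesenchymal, luminal and immune markers, housekeeping genes) were chosen with earlier results of these data known. The alternatives were size factors of DESeq2, library size only, no filter, at least 10 counts in every library, DESeq2 1.42.0, the 2 compared groups only, a replicate block, 1 factor of unwanted variation from 20 housekeeping genes as in RUVg, loess removal of GC and length trends (span 0.3) with and without the block, the ratio of mean CPM, and each library left out. On simulated data drawn for E2 relative to vehicle, in which 200 of 11303 genes differed 4-fold, the test recovered 199 with 0 false calls. The share of false calls in the measured libraries, where changes relative to vehicle rose with GC content, was not tested.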

Additional observations from a re-analysis of the deposited data

Results flagged for a closer look

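Of the 8 tested cystatins, 5 had an effect of E2 that differed with and without TNFα in the interaction test of edgeR (adjusted p of at most 0.1, as for 76.6% of all genes). The interaction was 1.63 on the log2 scale for CST2 and 4.14 for CST5, which had 9 and 0 reads in the 3 TNFα libraries together. The fitted value of CST5 depends on the prior count and bounds nothing. It was −1.35 for CST3 and −1.36 for CSTB, where E2 raised the level by 1.86 and 1.71 relative to vehicle but by 0.51 and 0.35 relative to TNFα. For CST7 it was −0.99, with a change of −2.18 relative to vehicle and of −3.18 relative to TNFα. All 5 values use the vehicle libraries. With the unwanted factor from housekeeping genes, CST3 (−0.24, adjusted p = 0.652), CSTB (−0.47, adjusted p = 0.384) and CST7 (−1.59, adjusted p = 0.311) no longer reached an adjusted p of 0.1 in edgeR, and CST7 did not with GC and length trends removed either (−0.35, adjusted p = 0.472). CST2 (2.07 and 2.26) and CST5 reached it under both, but on the same 9 and 0 reads in the TNFα libraries, so this adds no support.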

How the results depend on the processing

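CST1, CST2 and CST4 kept their direction and were called in E2 relative to vehicle and in E2+TNFα relative to TNFα under every alternative that tested them, and so was CST5 in E2 relative to vehicle. The direction of CST2 and CST5 followed from the filter, so that their steadiness adds no support. Of the values of single cystatins, 454 kept their direction and side of the thresholds under the alternatives that kept all libraries, 12 lost the call, 5 gained it and 15 turned. With each library left out these numbers were 565, 1, 5 and 5. With at least 10 counts in every library only CST1, CST3, CST4 and CSTB were tested, and 4 cystatins were called in E2 relative to vehicle (7 as reported), 0 in TNFα relative to vehicle (2 as reported), 3 in E2+TNFα relative to vehicle (6 as reported), 2 in E2+TNFα relative to TNFα (5 as reported) and 0 in the interaction (2 as reported). In E2 relative to vehicle 4 were called with the unwanted factor from housekeeping genes, and 5 with library size only or GC and length trends removed. In TNFα relative to vehicle 3 were called under 5 of the alternatives, and in E2+TNFα relative to vehicle 5 with the unwanted factor or the trends removed. With each library left out, 7 were called throughout in E2 relative to vehicle, 2 to 3 in TNFα relative to vehicle and 1 to 3 in the interaction, the lowest without TNFα replicate 3 (CST2 at 1.23). CST6 turned in E2 relative to vehicle with the unwanted factor (−1.35), with GC and length trends removed (−0.32) and with these and the block (−0.36), in E2+TNFα relative to vehicle in the same order (−0.88, −0.23 and −0.28), and with the unwanted factor in TNFα relative to vehicle (−0.14) and in the interaction (0.61). CST7 in TNFα relative to vehicle turned with the trends removed (−0.25, and −0.27 with the block). In E2+TNFα relative to E2, where no cystatin was called, CST3 turned with library size only (0.086), the unwanted factor (0.24) and the trends removed (0.067, and 0.074 with the block), and CST1 with the unwanted factor (0.017). With libraries left out in that comparison CST3 ranged from −0.18 to 0.11 and CST6 from −0.62 to 0.45. The cause was not tested in any of these.

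Samples with the same replicate number did not deviate together (5 of 18 pairs had a correlation over 0.1, range −0.48 to 0.47), so the numbers were not taken as pairs. With the replicate number as a block, 7 cystatins were called in E2 relative to vehicle, and the call of CST6 in TNFα relative to vehicle was gained (just over 1.5), as it was under several other alternatives. That call adds no support, as CST6 passed the filter mainly through the TNFα libraries. The 5 called with E2 and TNFα relative to TNFα stayed at 5. Over all genes, removal of GC and length trends gave 1574, 1188, 1231 and 1559 calls (for E2, for TNFα and for both agents relative to vehicle, and for the interaction), and the unwanted factor 1657, 1225, 1355 and 1336, against 3447, 3016, 2837 and 3593. Calls in E2+TNFα relative to E2 were 46, but 24 with at least 10 counts in every library, 30 with only these 2 groups, and 32 to 84 with a library left out. Depth limits CST6 in every group, CST7 with E2, and CST2 and CST5 without E2.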
